A study of Arabidopsis thaliana with 14 samples.

Results

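Gene-body peaks away from transcription start sites were taken from 10 deposited lists of binding sites of type-B ARABIDOPSIS RESPONSE REGULATORs (B-ARRs) in Arabidopsis thaliana. A peak was kept when its score, the −log10 of the peak caller's p-value, was at least 16. It was counted as a gene-body peak when its summit lay inside a protein-coding gene, more than 500 bp from the transcription start site (TSS) of that gene and of every other annotated gene. Of 44261 kept peaks in the 10 lists, 5488 met this rule, or 12.4% (95% Wilson interval 12.1% to 12.7%). They lay in 2069 genes and formed 2059 separate loci once overlapping gene-body peaks of different lists were joined.

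The study asked where B-ARRs bind in the genome and how cytokinin changes it, by chromatin immunoprecipitation with an anti-GFP antibody followed by sequencing (ChIP-seq). Whole 3-day-old seedlings carried ARR1, ARR10, ARR12 or ARR14 tagged with Ypet, a yellow fluorescent protein, at the C-terminus by recombineering, which keeps the gene's own flanking sequence. The tagged ARR1 was the ARR1.2 isoform. Each list combined biological replicates into 1 set of peaks, so that a list has no replicate of its own, and the 2 control libraries, input and IgG, both came from the 6-BA-treated ARR1 line.

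Short names are used for the lists, made from the protein and the treatment. The etiolated list (ARR1_m_etiolated) came from dark-grown, mock-treated ARR1 seedlings, and all other seedlings grew in long days. ARR1_m is the mock list, with DMSO for 4 h. ARR1_BA followed 4 h of 10 µM 6-BA (6-benzyladenine, a synthetic cytokinin), and ARR1_BA3d followed 72 h on the same dose. ARR10_BA and ARR10_m, and the lists labelled ARR12_BA and ARR12_m, are the 4 h 6-BA and mock lists of those proteins. ARR14_BA3d followed 72 h on 6-BA, with no mock list beside it. ARR1∆DDK_Dex came from seedlings in which the 35S promoter drives an ARR1 without its receiver domain, fused to the glucocorticoid receptor, after 4 h of 10 µM dexamethasone. Its line label names the full-length ARR1 line, and it was placed by its title and treatment.

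Cytokinin is sensed by histidine kinase receptors and relayed through histidine phosphotransfer proteins (AHPs) to the receiver domain of the B-ARRs, which are DNA-binding transcription factors. Their direct targets include the type-A ARRs, which dampen the same signal, and the cytokinin oxidases (CKX), which degrade the hormone. Plant transcription factor sites cluster near the TSS, and sites inside transcribed genes fall into exons, introns or untranslated regions (UTRs).

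Before any comparison, 2 sets of lists need a remark. The ARR1_m list kept only 73 of its 3324 deposited peaks, and 49 of those 73 were gene-body peaks. The lists labelled ARR12_m and ARR12_BA are named here by their labels, but the target genes that the study lists for each condition of ARR12 match these peak lists the other way round, so no direction between the 2 was drawn. The lists held between 3324 and 11499 deposited peaks, apart from 2916 in ARR1∆DDK_Dex and 1513 in the etiolated list, and each started at its own lowest score, from 4.88 in ARR1_m to 31.2 in ARR1∆DDK_Dex. Read depth is unknown, and intervals given for shares of peaks cover counting error only.

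The DNA under 11 summits is printed, with and without the B-ARR motif. Each stretch below is the 100 bp around the middle summit of a locus, from the TAIR10 RefSeq sequence, written 5′ to 3′ on the strand of the gene. Capitals mark AGATHY, the motif that the study gives for B-ARRs, read on either strand as AGATAC, then AGATAT, then AGATCC, then AGATCT, then AGATTC and then AGATTT. The first 5 are intronic windows that recurred in 6 to 9 lists, and lie in the cytokinin receptor gene AHK4 (chr2:368901-369000, minus strand), the cytokinin oxidase gene CKX5 (chr1:28315686-28315785, minus strand), the type-A response regulator gene ARR6 (chr5:25253194-25253293, minus strand), the cationic amino acid transporter gene CAT6 (chr5:1380840-1380939, plus strand) and the proton pump gene HA3 (chr5:23235582-23235681, minus strand). The next pair lies in the coding sequence of the CYTOKININ RESPONSE FACTOR genes CRF1 (chr4:6794942-6795041, minus strand) and CRF2 (chr4:12377622-12377721, plus strand). The last 4 are shown for contrast. PIN3 (chr1:26745168-26745267, plus strand), an auxin efflux carrier gene, has an intronic summit without the motif. DTA2 (chr2:18867040-18867139, plus strand) and MO1 (chr4:8972806-8972905, minus strand), a monooxygenase gene, have coding summits without it, and UBQ10 (chr4:2719304-2719403, plus strand), a polyubiquitin gene, has a broad peak over its coding sequence.
AHK4: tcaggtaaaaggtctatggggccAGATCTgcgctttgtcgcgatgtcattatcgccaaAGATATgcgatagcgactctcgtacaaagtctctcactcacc
CKX5: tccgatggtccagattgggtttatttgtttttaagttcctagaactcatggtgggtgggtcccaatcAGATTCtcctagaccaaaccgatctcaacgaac
ARR6: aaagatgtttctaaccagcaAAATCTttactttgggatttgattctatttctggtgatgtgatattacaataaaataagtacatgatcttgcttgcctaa
CAT6: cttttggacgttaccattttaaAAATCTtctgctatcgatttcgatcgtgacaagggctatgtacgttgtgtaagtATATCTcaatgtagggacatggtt
HA3: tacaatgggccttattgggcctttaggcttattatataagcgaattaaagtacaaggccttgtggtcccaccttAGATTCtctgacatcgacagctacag
CRF1: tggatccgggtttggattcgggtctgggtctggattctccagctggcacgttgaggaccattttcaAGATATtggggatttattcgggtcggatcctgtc
CRF2: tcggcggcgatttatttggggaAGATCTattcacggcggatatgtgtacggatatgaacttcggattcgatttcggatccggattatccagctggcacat
PIN3: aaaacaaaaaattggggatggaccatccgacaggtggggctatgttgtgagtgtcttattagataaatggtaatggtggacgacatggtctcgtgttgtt
DTA2: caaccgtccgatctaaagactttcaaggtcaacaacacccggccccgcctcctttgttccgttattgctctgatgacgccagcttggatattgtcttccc
MO1: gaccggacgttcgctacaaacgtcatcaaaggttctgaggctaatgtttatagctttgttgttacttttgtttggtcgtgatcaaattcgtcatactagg
UBQ10: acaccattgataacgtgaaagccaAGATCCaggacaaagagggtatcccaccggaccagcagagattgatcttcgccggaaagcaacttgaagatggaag

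AHK4 and CAT6 hold 2 matches each in these windows, PIN3, DTA2 and MO1 hold none and the other 6 hold 1 each. By itself a match says little, since 36.7% of all 100 bp windows of the sequence open to gene-body summits hold one. A match is a description of the letters and does not show a binding site.

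Gene-body peaks made up 7.14% to 14.6% of the kept peaks in 9 lists and most of those in ARR1_m. The share of kept peaks was 9.33% in ARR1∆DDK_Dex, 7.14% in the etiolated list, 13.0% in ARR1_BA and 11.8% in ARR1_BA3d. The etiolated list was lowest of the ARR1 lists. The share was 12.3% in ARR10_BA and 14.5% in ARR10_m, and 12.0% in ARR14_BA3d. The lists labelled ARR12_BA and ARR12_m had 11.4% and 14.6%. In ARR1_m it was 67.1% (95% Wilson interval 55.7% to 76.8%). Bases that meet the same position rule make up 40.1% of the nuclear genome, so that the share was 0.178 to 0.364 of the sequence share in 9 lists and 1.67 times it in ARR1_m. These shares follow from the rule and were given no test.

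**Figure D1:**
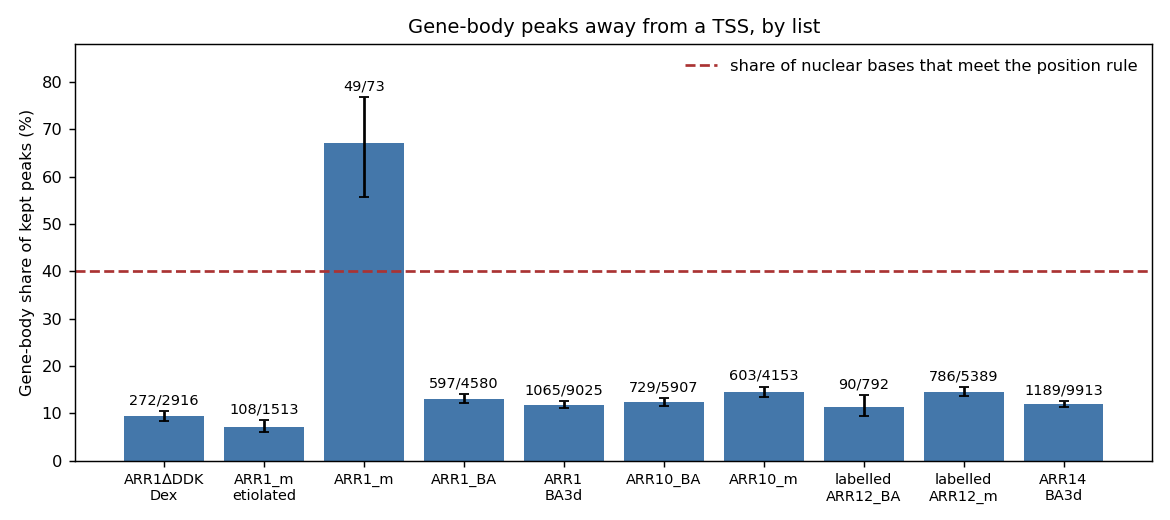
Share of kept peaks that are gene-body peaks (vertical axis, percent) in each of the 10 lists, with 95% Wilson intervals and counts above the bars. The dashed line is the 40.1% of nuclear bases that meet the position rule, and only the ARR1_m bar, at 67.1%, stands above it.

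Compared with the sequence open to them, gene-body summits were more often in a UTR, on the 5′ side in 9 lists and on the 3′ side in all 10, and less often in coding sequence in 9. The 3′ UTR held 18.4% to 41.7% of gene-body summits by list, against 10.9% of the sequence where such a summit can lie. The coding sequence held 18.9% in ARR10_BA, 52.6% in ARR1∆DDK_Dex and 81.6% in ARR1_m, the lowest and the 2 highest, against 55.4% of the sequence. Introns held 14.3% to 32.6% in 9 lists and 0 of 49 summits in ARR1_m, which allows up to 7.27%, against 32.0% of the sequence. The 5′ UTR held 0% to 9.33%, against 1.74%. Counted by the coding frame, 18.4% to 38.5% of the summits lay after the stop codon, against 10.5% of the sequence, and 0% to 8.58% before the start codon, against 2.08%.

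**Figure D2:**
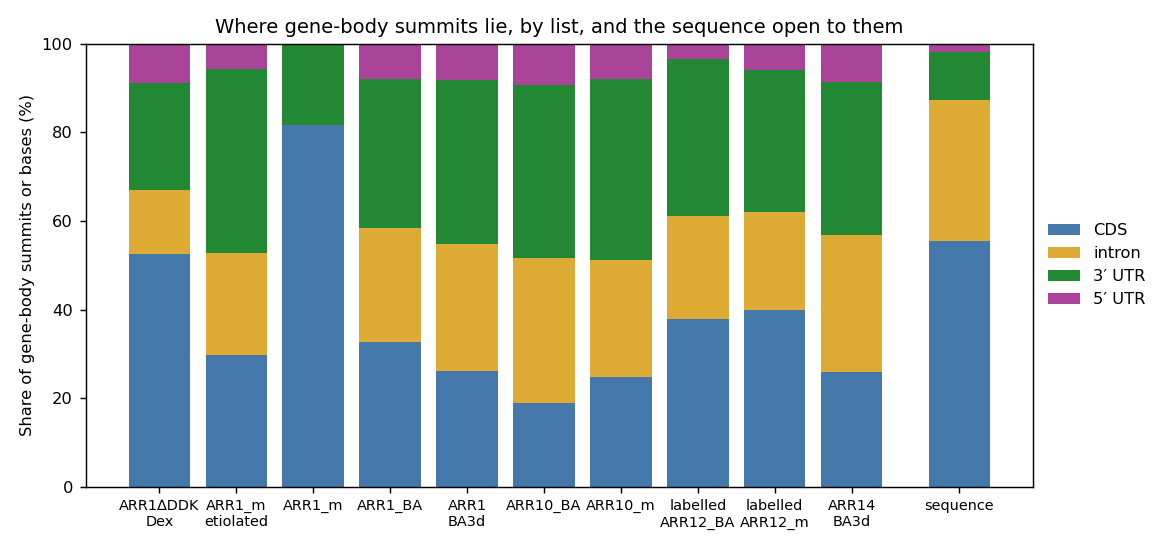
Composition of gene-body summits (vertical axis, percent) by coding sequence (CDS), intron, 3′ UTR and 5′ UTR in each list, with the sequence open to such summits at the right. The 3′ UTR takes 10.9% of that sequence and at least 18.4% of the summits in every list, and ARR1_m has no intron summit.

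The distance to the gene's end was counted next. The gene around a gene-body summit had a median length by list of 2121 to 2823 bp. Over regular points of the sequence open to such summits it was 3173 bp, a value in which long genes count more often. With each gene counted once, genes with a gene-body peak in any list had a median of 2539 bp. Protein-coding genes with room for such a summit had 2180 bp. The part of gene length in the distances that follow was not tested. Between 36.7% and 45.9% of gene-body summits lay within 500 bp of the annotated end of their gene, against 20.0% of the sequence. The bins 100 to 250 bp and 250 to 500 bp from the end held more summits than their share of sequence in 10 of 10 lists, and the last 100 bp did so in 9. Beyond 1000 bp from the end every list held fewer. From the TSS, the bin from 1000 to 1500 bp held 1.19 to 1.66 times its share of sequence in all 10 lists, while distances over 3000 bp held 0.213 to 0.619 times theirs. The TSS nearest to the summit was that of another gene for 24.6% to 32.8% of gene-body peaks, against 33.7% of the sequence, so a neighbouring gene's TSS was not more often the nearer one. The peak itself, which is wider than its summit, reached over a TSS in 22.4% to 44.6% of gene-body peaks.

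The intron share of gene-body summits was lower than that of the sequence in 9 of 10 lists and slightly higher in ARR10_BA, at 32.6%. The mean log2 ratio was −0.83 (SD 1.50 over 10 lists, exact two-sided sign-flip permutation test over lists, p = 0.00391, adjusted p = 0.0137 by Benjamini–Hochberg over 7 tests). Without ARR1_m, which enters with a pseudocount of 0.5 for its 0 intron summits, the mean was −0.37 over 9 lists (adjusted p = 0.0273 by the same exact permutation test). The call depended on what counts as an exon: with the exons of the longest coding transcript alone, the share was higher than that of the sequence in 6 lists and lower in 4 (mean log2 ratio −0.51, adjusted p = 0.839 by the same exact permutation test), and with the whole peak required to meet the position rule the mean was 0.38 (adjusted p = 0.0866 by the same exact permutation test).

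Among the introns that did hold a summit, long and first introns were frequent. The introns with a summit had a median length of 674 bp to 959 bp in the 9 lists that had any, against 181 bp over intron sequence sampled at regular points. Introns longer than 500 bp held 63.2% to 90.5% of intron summits, against 18.4% of intron sequence. First introns held 28.6% to 37.1%, against 17.4%. Both were counted over introns of each gene's longest coding transcript, and no test was run on them. Intron summits outside these introns were left out, so that 21 of 25 were counted in the etiolated list and 144 of 154 in ARR1_BA.

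The scores of gene-body peaks were not ranked differently from those of other kept peaks beyond the spread between lists. The median score percentile within the list, where 100 is the highest peak, was 43.1 to 53.4 for gene-body peaks in 9 lists, against 49.5 to 51.0 for the other peaks. In ARR1_m it was 60.3 for gene-body peaks and 34.9 for the other 24 peaks. Over the 10 lists the mean difference was 1.86 percentile points (SD 9.05, higher in 6 lists and lower in 3, exact permutation test, adjusted p = 0.839), and without ARR1_m it was −0.75. The difference was −6.94 points in the etiolated list, −5.53 in ARR10_BA and −4.58 in ARR1∆DDK_Dex, the 3 lists with lower ranks in gene bodies. Over all deposited peaks with no minimum score the difference was −3.72 points, lower in 8 of 10 lists (adjusted p = 0.0444 by the exact permutation test). With the whole peak required to meet the position rule it was −12.6 points, lower in 10 of 10 lists (adjusted p = 0.00684 by the exact permutation test). Median fold enrichment over input differed by a mean of 0.0021 on the log2 scale (SD 0.043 over 10 lists, exact permutation test, adjusted p = 0.910).

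Gene-body peaks were wider than the other peaks in every list. Their median width was 1154 bp in ARR1∆DDK_Dex, 1144 bp in the etiolated list and 2204 bp in ARR1_m, against 864 bp, 906 bp and 1760 bp for the other peaks of those lists. In ARR1_BA it was 1562 bp against 1137 bp, and in ARR1_BA3d 1360 bp against 1033 bp. All 5 ARR1 lists had the larger median in gene bodies. ARR10_BA had 1342 bp against 1137 bp, and ARR10_m 1706 bp against 1263 bp. The list labelled ARR12_BA had 1178 bp against 778 bp, the one labelled ARR12_m 1187 bp against 902 bp, and ARR14_BA3d 1267 bp against 1005 bp. The mean log2 ratio was 0.39 (SD 0.097), or 1.31 times (higher in 10 of 10 lists, exact permutation test, p = 0.00195, the smallest that 10 lists allow, adjusted p = 0.0137).

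The difference was also there among peaks of like score: within 4 bins of score of each list, the mean log2 ratio of widths was 0.25 to 0.51. It was not there among the 1545 peaks that met the position rule over their whole length, a requirement that leaves out wide peaks by construction (mean log2 ratio −0.087, adjusted p = 0.839 by the exact permutation test). The widest gene-body peak spanned 41559 bp around AT2G25169 in the list labelled ARR12_BA and lay within 50 kb of ARR12, the gene tagged in that line. It reached from AT2G25169 to AT2G25220, with ARR12 between them by gene number. The next widest were 8842 bp over ABCC3, a transporter gene, in ARR1_BA and 8587 bp over CAT6 in ARR1_BA3d.

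**Figure D3:**
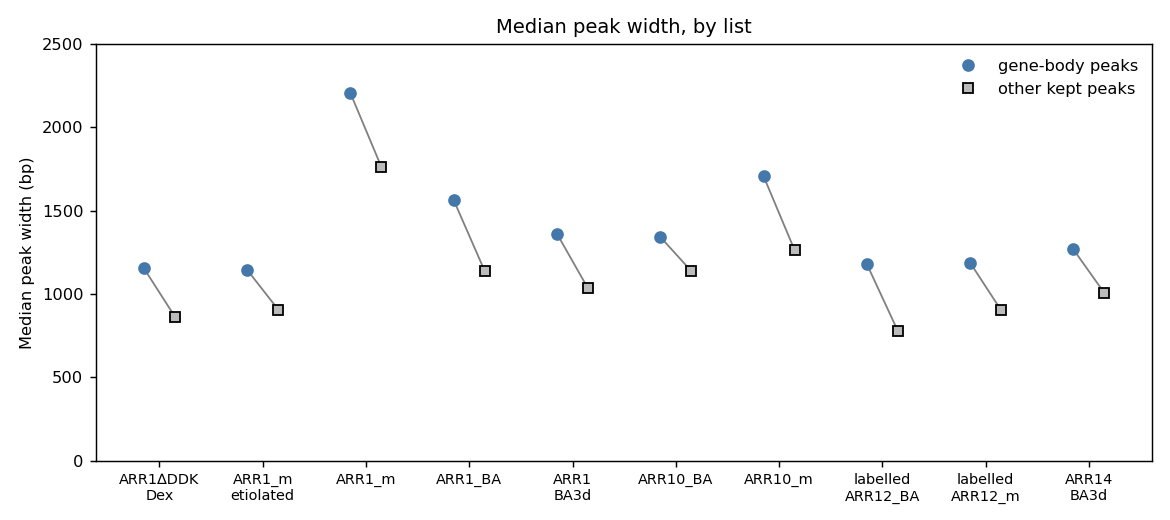
Median peak width (vertical axis, bp) of gene-body peaks (circles, left) and of the other kept peaks (squares, right) in each list, joined by a line. The circle is above the square in all 10 lists, by a mean log2 ratio of 0.39.

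AGATHY was found under gene-body summits about as often as under the other summits of the same list. In ARR14_BA3d it was in 69.5% of 100 bp gene-body windows, against 66.0% of the others. In ARR1∆DDK_Dex the shares were 65.8% and 62.4%. These 2 lists stood highest for both kinds of summit. In the etiolated list they were 51.9% and 49.8%, in ARR1_BA 42.5% and 45.9%, and in ARR1_BA3d 45.8% and 45.3%. ARR10_BA had 50.1% and 50.9%, and ARR10_m 40.0% and 42.7%. The lists labelled ARR12_BA and ARR12_m had 47.8% and 35.9% under gene-body summits, against 49.0% and 37.1% under their other summits. In these 4 lists the gene-body share was the slightly lower one. In ARR1_m the shares were 34.7% (17 of 49) and 45.8% (11 of 24). The mean difference was −1.11 percentage points (SD 4.25, higher in 4 of 10 lists, exact permutation test, adjusted p = 0.839) and 0.0090 points without ARR1_m.

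Set against windows 200 to 400 bp away, gene-body summits of 8 lists carried more of the motif. The summit window exceeded the mean of the windows 200 to 400 bp away by 33.6 percentage points in ARR14_BA3d, 25.2 in ARR1∆DDK_Dex, 14.4 in the etiolated list, 13.7 in ARR10_BA, 10.4 in the list labelled ARR12_BA, 10.0 in ARR1_BA3d, 6.25 in ARR1_BA and 3.62 in ARR10_m. In the list labelled ARR12_m the difference was −0.81 points and in ARR1_m it was −4.42 points. Windows 100 bp away are not part of this mean. In ARR10_m the window at +100 bp held the motif in 41.5%, above the 40.0% at the summit. Windows of one locus recur in several lists, so the lists are not independent in this respect, and no test was run.

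**Figure D4:**
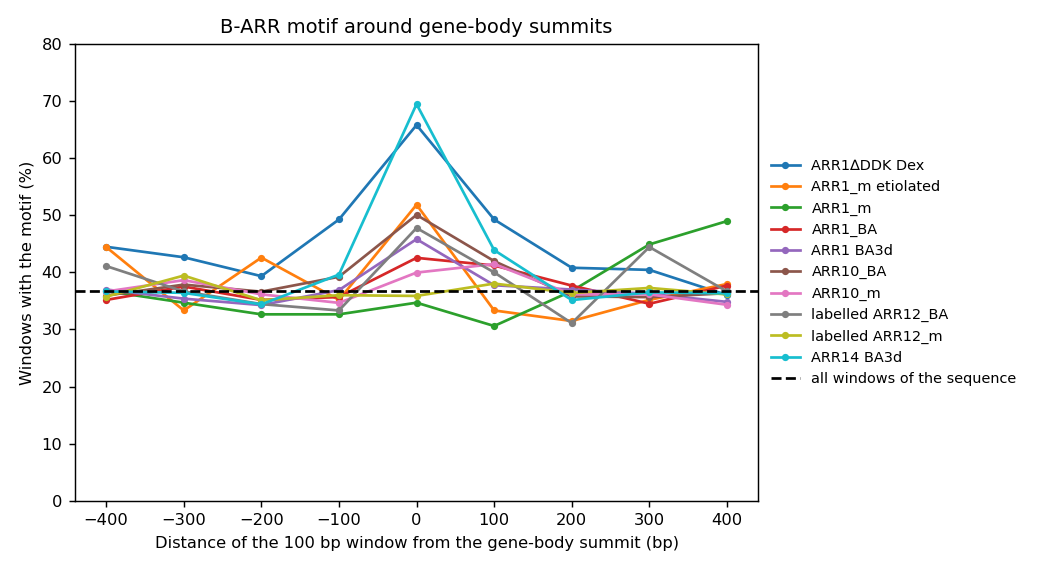
Share of 100 bp windows with the B-ARR motif (vertical axis, percent) at the gene-body summit and at set distances from it (horizontal axis, bp), 1 line a list, with the dashed line at the 36.7% of all windows of the sequence open to such summits. The ARR14_BA3d line reaches 69.5% and the ARR1∆DDK_Dex line 65.8% at the summit, and the ARR1_m line is at 34.7%.

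Other motifs were counted in the same windows, on both strands. CACGTG, the G-box core read by many bHLH and bZIP factors, was in 6.67% to 14.3% of gene-body summit windows, against 0.843% of all windows of the sequence. Under the other summits of those lists it was in 7.26% to 14.2%. AAACCCTA, a telobox-type repeat, was in 0% to 0.926% of gene-body windows, against 0.691% of the sequence. Under the other summits it was in 0% to 1.46%, the higher share in every list but ARR1_m (equal) and the etiolated list (lower). GAGAGA was in 10.0% to 12.4% of gene-body windows, against 8.89% of the sequence. Under the other summits it was in 4.17% to 18.2%, the higher share in every list but ARR1_m (lower) and the list labelled ARR12_BA (equal). No test was run on these 3 motifs. Median GC content of gene-body windows was 36.0% to 46.0%, and higher than under the other summits in 7 lists and equal in 3, by a mean of 2.0 percentage points (SD 2.27, exact permutation test, adjusted p = 0.0365 over 10 lists). This call was lost without ARR1_m, with a mean of 1.44 points (adjusted p = 0.0729 by the exact permutation test), and without each of 6 other lists. These are the 7 lists with a difference, and the 6 that remain each time are too few to pass the threshold after adjustment. The loss therefore says nothing of the lists left out.

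Within gene bodies, intron and exon peaks differed in motif and width. These tests were added after the data had been seen and cover the 9 lists with intron summits. The AGATHY share averaged 57.1% under intron summits and 47.7% under exon summits, a difference of 9.44 points (SD 9.99, higher in 8 of 9 lists, exact permutation test, adjusted p = 0.0312 over 4 tests). In the sequence itself it was 38.1% in intron windows and 35.6% in coding windows. GC content averaged 35.3% under intron summits and 41.8% under exon summits, lower in 9 of 9 lists, and its part in the motif difference was not tested. The motif call was lost when any of 6 lists was left out: without the etiolated list the mean difference was 6.69 points (adjusted p = 0.0521 by the exact permutation test). It was also lost at a minimum score of 30, with 4.52 points (adjusted p = 0.516), beyond 1000 bp from a TSS, with 6.29 points (adjusted p = 0.0729), and with the whole peak in the position rule, with 2.75 points (adjusted p = 0.480, all by the exact permutation test).

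Intron peaks were narrower than exon peaks in 8 of 9 lists, by a mean log2 ratio of −0.14 (SD 0.14, exact permutation test, adjusted p = 0.0312). At a minimum score of 30 the mean ratio was 0.32 with an SD of 1.84 (adjusted p = 0.996 by the exact permutation test), and beyond 1000 bp from a TSS it was −0.054, with intron peaks narrower in 4 of 9 lists (adjusted p = 0.516 by the exact permutation test). With the whole peak in the position rule it was 0.026 (adjusted p = 0.531 by the exact permutation test). Intron summits were matched within 100 bp by a summit in 0.52 more lists than exon summits (higher in 7 of 9 lists, exact permutation test, adjusted p = 0.0521). This passed the threshold over all deposited peaks (0.47 lists, adjusted p = 0.0312), beyond 1000 bp from a TSS (0.57 lists, adjusted p = 0.0208) and without ARR10_BA (0.63 lists, adjusted p = 0.0208), and was 0.037 lists at a minimum of 30 (adjusted p = 0.961, all by the exact permutation test). A match between lists enters the values of both, so the matching values are not independent of each other. The score percentile differed by −2.64 points (exact permutation test over 9 lists, adjusted p = 0.270).

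Most gene-body peaks overlapped a peak of some other list, from 77.9% in ARR14_BA3d to 100% in ARR1_m, against 78.5% and 100% of the other peaks of those lists. The mean number of other lists with an overlapping peak differed by −0.064 (SD 0.50, exact permutation test over 10 lists, adjusted p = 0.839). Summits within 100 bp of each other were a stricter match. In ARR1∆DDK_Dex, 84.6% of gene-body summits lay within 100 bp of a summit of another list, against 89.6% of all kept peaks, and in the etiolated list 91.7% did, against 90.9%. In ARR1_m the shares were 57.1% and 69.9%, in ARR1_BA 85.3% and 92.7%, and in ARR1_BA3d 79.4% and 82.9%. These 3 lists had the lower share in gene bodies. ARR10_BA had 82.6% and 85.5%, and ARR10_m 84.7% and 92.5%. The list labelled ARR12_BA had 82.2% and 79.8%, the one labelled ARR12_m 69.7% and 81.9%, and ARR14_BA3d 63.4% and 68.2%. The mean number of other lists with a summit within 100 bp was lower for gene-body than for other peaks in 10 of 10 lists, by a mean of 0.84 lists (written as −0.84 with SD 1.14, exact permutation test, adjusted p = 0.00684). In ARR1_m it was 1.33 for gene-body peaks and 5.33 for other peaks, and without this list the mean difference was −0.49 (SD 0.27, lower in 9 of 9 lists, exact permutation test, adjusted p = 0.00911, an alternative chosen after seeing the data). A match between lists enters the values of both, and the same loci recur in several lists. The sharing values are therefore not independent of each other, and these p-values measure spread between lists only.

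Overlap between conditions of the same protein was uneven. Of the ARR1_BA gene-body peaks 31 of 597 overlapped a gene-body peak of ARR1_m, or 5.19%, while 31 of the 49 ARR1_m gene-body peaks, or 63.3%, overlapped one of ARR1_BA. The ARR1_BA3d list had 412 of 1065 peaks (38.7%) over those of ARR1_BA, and ARR1_BA had 413 of 597 (69.2%) over those of ARR1_BA3d. For ARR10, 406 of 729 peaks (55.7%) of the 6-BA list and 406 of 603 (67.3%) of the mock list overlapped each other. In each of these pairs the shorter list had the larger share overlapped. Between the lists labelled ARR12_BA and ARR12_m, 64 of 90 (71.1%) and 63 of 786 (8.02%) did. ARR14_BA3d and ARR1_BA3d, which share the treatment, overlapped at 731 of 1189 (61.5%) and 732 of 1065 (68.7%). Lists of unequal length bound these shares, and with 1 list a condition no test of the treatment was possible.

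Of the 2059 loci, 867 (42.1%) were gene-body peaks in 1 list only, and 363 of those were in ARR14_BA3d, the longest list after filtering. Another 393 loci (19.1%) were found in 5 or more lists, of which 40 were in 8, 15 in 9 and 1 in all 10. At these 393 loci the summits of the different lists spread over a median of 137 bp. They fell within 100 bp of each other at 143 loci (36.4%). By class this was 38.2% of intron loci, 29.8% of coding loci, 37.5% of 3′ UTR loci and 48.5% (16 of 33) of 5′ UTR loci.

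The locus in all 10 lists was AT1G04000 on chromosome 1, a gene with no description in the annotation used, with summits spread over 50 bp at the boundary of its coding sequence and 3′ UTR, 665 to 715 bp from the TSS. Its scores were 102.69 in ARR1∆DDK_Dex, 50.71 in the etiolated list, 17.71 in ARR1_m, 86.5 in ARR1_BA and 157.92 in ARR1_BA3d. They were 77.71 in ARR10_BA, 105.74 in ARR10_m, 25.2 and 127.25 in the lists labelled ARR12_BA and ARR12_m, and 152.19 in ARR14_BA3d. The peak was near the top of most lists, at a median percentile of 96.9, and low only in ARR1_m. None of its 10 summit windows held AGATHY.

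AHK4 (WOL in the annotation), the gene of a cytokinin receptor, held the locus with the highest median score percentile, 99.5, among the 15 loci in 9 lists. Its scores were 139.55 in ARR1∆DDK_Dex, 61.01 in the etiolated list, 93.13 in ARR1_BA and 202.56 in ARR1_BA3d. They were 101.85 in ARR10_BA and 71.9 in ARR10_m, 29.65 and 106.02 in the lists labelled ARR12_BA and ARR12_m, and 268.02 in ARR14_BA3d. It was the highest gene-body peak of the etiolated, ARR1_BA3d and ARR10_BA lists, and in ARR1_m its score of 6.21 was below the minimum. All 9 summits fell within 56 bp in an intron upstream of the start codon, 733 to 789 bp from the gene's TSS, and all 9 windows held AGATHY. The nearest start of any annotated transcript was 561 to 617 bp away.

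Of the 15 loci in 9 lists, 11 are described, those with the highest median score percentile, and none of the 11 had a kept gene-body peak in ARR1_m. AT1G05805 had a summit in its first intron with scores from 22.45 to 225.29, and so did AT1G27100 with scores from 20.94 to 87.25. The plasma membrane proton pump genes HA1 and HA3 had peaks in an annotated 5′ UTR and in the second intron, with scores of 17.3 to 105.33 and of 16.07 to 204.65. APRR2, a pseudo-response regulator gene, AGP9, an arabinogalactan protein gene, AT1G49450 and AT3G03990 had theirs in a 3′ UTR, and the medians of their scores were 66.99, 63.65, 48.68 and 41.35. In the longest coding transcripts of AGP9 and HA1 the summits lay in the first intron, and another annotated transcript makes the place a UTR. CYP86A8, a cytochrome P450 gene, had summits in its coding sequence and 3′ UTR spread over 716 bp, and DTA2 had a coding summit within 96 bp. HA3 and AT1G27100 held AGATHY in 9 of 9 windows, APRR2 and AT1G05805 in 7, and DTA2 in 3.

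**Figure D5:**
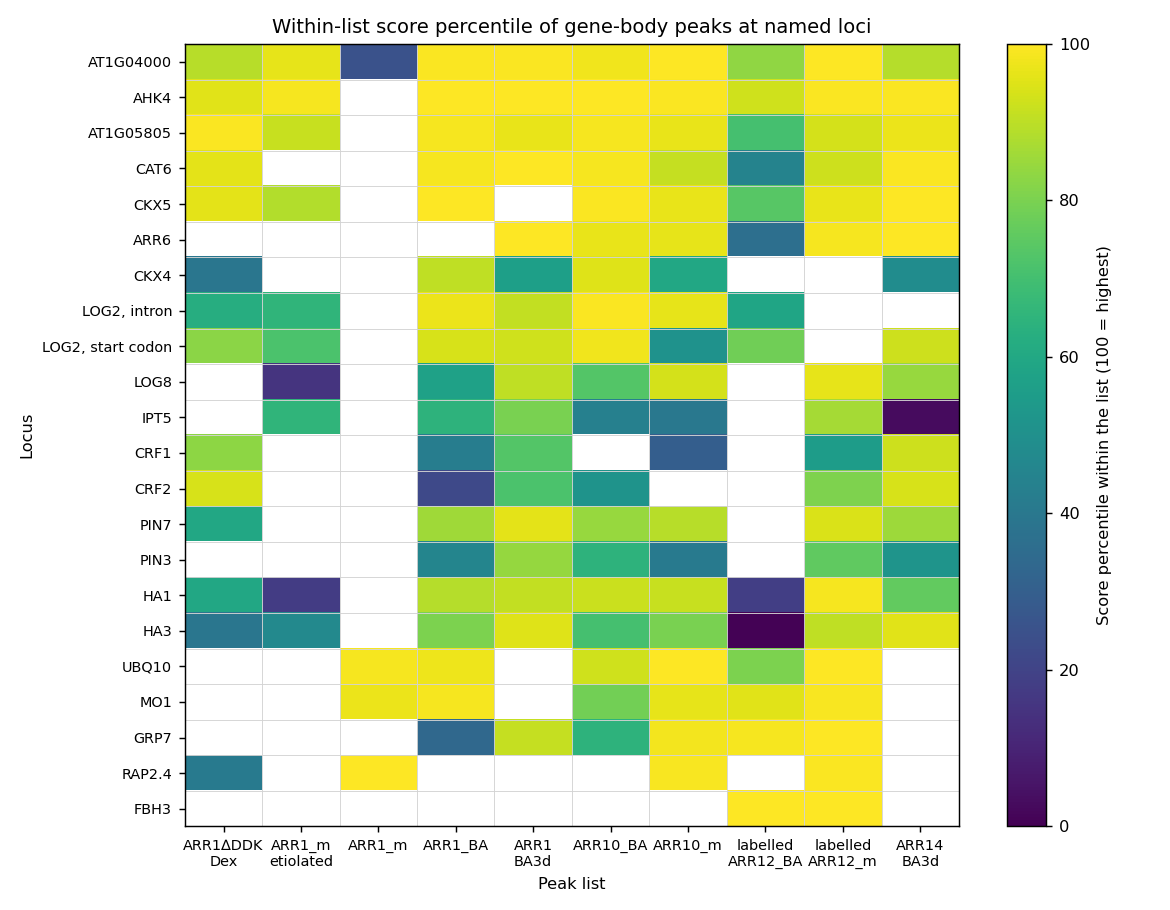
Score percentile within each list (colour, 100 is the highest kept peak) of gene-body peaks at 22 named loci (vertical axis) in the 10 lists (horizontal axis). White means no kept gene-body peak at that locus, including peaks whose summit lies outside the gene body or whose score is under 16; AHK4 is coloured in 9 lists and white in ARR1_m, while RAP2.4 is at 100 in ARR1_m.

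Genes of cytokinin metabolism and signalling were taken from fixed lists of 62 genes. These 62 are 0.242% of the 25618 protein-coding genes with room for a gene-body summit. Of them, 20 (32.3%) held a gene-body peak in at least 1 list, beside 2069 (8.08%) of those 25618. By list the count was 8 in ARR1∆DDK_Dex, 6 in the etiolated list, 0 in ARR1_m and 12 each in ARR1_BA and ARR1_BA3d. It was 11 in ARR10_BA, 10 in ARR10_m, 4 and 13 in the lists labelled ARR12_BA and ARR12_m, and 14 in ARR14_BA3d. Genes whose peaks all have summits outside the position rule are not counted. The count thus says nothing of how often the 62 genes are bound at all. A counted peak can itself reach over a TSS, as 22.4% to 44.6% of gene-body peaks did by list.

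Among receptors, AHK4 was the only 1 of 3 with a gene-body peak, and of the 6 phosphotransfer genes only AHP1 had one, in its 3′ UTR in ARR10_BA (27.01) and ARR14_BA3d (98.4). None of the 11 B-ARR genes had one. Of the 10 type-A ARR genes, 4 did. ARR6 had summits within 94 bp in the fourth intron in 6 lists, with scores of 173.92 in ARR1_BA3d, 72.5 in ARR10_BA, 53.52 in ARR10_m, 18.73 and 80.38 in the lists labelled ARR12_BA and ARR12_m, and 277.24 in ARR14_BA3d, where it was the highest gene-body peak. In ARR1∆DDK_Dex, the etiolated list and ARR1_BA a peak overlapped the joined span of the locus with its summit elsewhere. ARR3 and ARR4 each had summits in the coding sequence or 3′ UTR in 2 lists, and ARR5 (RR5) had one in the fourth intron in the list labelled ARR12_m, at 27.2. Higher peaks with summits elsewhere overlapped these loci in other lists. In ARR14_BA3d they scored 192.94 at ARR3, 280.72 at ARR4 and 221.03 at ARR5.

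Of the 7 cytokinin oxidase genes, 5 held a gene-body peak. CKX5 had summits within 98 bp in the fourth intron in 8 lists, with scores of 143.25 in ARR1∆DDK_Dex, 39.22 in the etiolated list and 107.55 in ARR1_BA. They were 95.08 in ARR10_BA, 54.3 in ARR10_m, 23.15 and 66.42 in the lists labelled ARR12_BA and ARR12_m, and 273.17 in ARR14_BA3d. It was the highest gene-body peak of ARR1_BA. In ARR1_BA3d a peak of 233.49 overlapped the joined span of the locus with its summit elsewhere. A higher peak than the one in the intron also overlapped this span in each of the 8 lists but ARR1_BA. These higher peaks scored 224.68 in ARR1∆DDK_Dex, 87.18 in the etiolated list, 108.59 in ARR10_BA and 70.16 in ARR10_m. They scored 27.57 and 142.97 in the lists labelled ARR12_BA and ARR12_m, and 276.08 in ARR14_BA3d. CKX4 had summits in the second intron in 6 lists (25.97 to 66.94), CKX7 had summits in the second intron and in coding sequence in 5 lists (19.34 to 157.45), and CKX3 had coding summits in 3 lists (28.05 to 36.06). At CKX4 a higher peak with its summit elsewhere overlapped the joined span in ARR1_BA3d (86.74) and ARR14_BA3d (75.48). CKX2 had a single intron peak, in ARR10_BA, at 37.3.

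Genes of cytokinin synthesis and activation with a gene-body peak were 2 of the 9 IPT genes and 3 of the 10 LOG and CYP735A genes. LOG8, of the family of enzymes that release active cytokinin from its ribotide, had a 3′ UTR peak in 7 lists (22.01 to 134.28), and LOG7 had one in the fifth intron in 5 lists (22.56 to 39.41). Higher peaks with summits elsewhere overlapped the joined span of the LOG7 locus, at 68.66 in ARR10_BA and 64.33 in ARR14_BA3d. LOG2 held 2 loci. One lay in an intron upstream of its start codon in 7 lists (20.94 to 100.96), and the other at its start codon in 8 lists (23.57 to 177.26). The second lies only 11 to 149 bp from the start of another annotated transcript of LOG2, so it is a gene-body locus by the gene's first TSS alone. IPT5, which makes a cytokinin-forming isopentenyltransferase, had a 3′ UTR peak in 7 lists (21.26 to 52.94) with AGATHY in 0 of 7 windows, and IPT7 had one in ARR14_BA3d at 62.01.

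CYTOKININ RESPONSE FACTORs are AP2/ERF transcription factors, and 4 of the 6 held a gene-body peak. CRF2 had coding summits within 36 bp in 6 lists, with scores of 127.36 in ARR1∆DDK_Dex, 18.96 in ARR1_BA, 44.11 in ARR1_BA3d, 27.84 in ARR10_BA, 37.98 in the list labelled ARR12_m and 188.59 in ARR14_BA3d. CRF1 had coding summits within 69 bp in 6 lists, at 85.69 in ARR1∆DDK_Dex, 23.34 in ARR1_BA, 45.67 in ARR1_BA3d, 19.68 in ARR10_m, 26.61 in the list labelled ARR12_m and 174.7 in ARR14_BA3d. Both were highest in ARR14_BA3d and next in ARR1∆DDK_Dex, and AGATHY was in 6 of 6 windows of CRF2 and 5 of 6 of CRF1. CRF5 had a 3′ UTR peak in 4 lists and CRF6 a coding peak in 1. Peaks with summits elsewhere overlapped the joined span of the CRF5 locus at 133.72 in ARR1_BA3d and 232.29 in ARR14_BA3d. One overlapped the CRF6 locus at 182.45 in ARR14_BA3d.

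Genes of other pathways were counted in the same way. Beside the 8.08% of all genes with room, 5 of 11 auxin receptor and carrier genes held a gene-body peak. PIN7, PIN3 and PIN4 had theirs in the third intron of the gene, in 7, 6 and 3 lists, with summits within 73 bp, 89 bp and 14 bp. A shorter annotated transcript makes the place a 3′ UTR in PIN7 and PIN4. PIN7 scored from 40.49 to 137.23, PIN3 from 21.67 to 63.3 and PIN4 from 19.39 to 37.66, and none of their summit windows held AGATHY. Higher peaks with summits elsewhere overlapped the PIN4 locus, at 85.72 in ARR1_BA3d and 179.4 in ARR14_BA3d. AFB5, an auxin receptor gene, had a 3′ UTR peak at 77.94 in ARR14_BA3d alone. Of 11 ethylene genes 1 had a gene-body peak, EBF2, of 6 light receptor and PIF genes 1, PIF3, and of 9 clock genes 2, TOC1 and PCL1.

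Abundantly transcribed genes, a list of 32 housekeeping and photosynthesis genes, held a gene-body peak at 17, beside 8.08% of all genes with room. The 32 are 0.125% of those genes. By list the count was 1 of 275 genes with a gene-body peak in ARR1∆DDK_Dex, 0 of 107 in the etiolated list, 3 of 49 in ARR1_m, 7 of 594 in ARR1_BA and 5 of 1053 in ARR1_BA3d. The count was 4 of 715 in ARR10_BA, 6 of 606 in ARR10_m, 2 of 88 and 11 of 784 in the lists labelled ARR12_BA and ARR12_m, and 1 of 1177 in ARR14_BA3d. Genes whose peaks all have summits outside the position rule are again left out, so the counts say nothing of binding at large. At UBQ10 a peak with its summit elsewhere overlapped the locus at 87.77 in ARR1_BA3d and 63.47 in ARR1∆DDK_Dex. Such a peak scored 23.79 in the etiolated list and 139.17 in ARR14_BA3d. UBQ10 had coding summits in 6 lists spread over 549 bp, with scores of 55.82 in ARR1_m, 72.19 in ARR1_BA, 60.11 in ARR10_BA, 80.61 in ARR10_m, and 24.64 and 113.2 in the lists labelled ARR12_BA and ARR12_m. GRP7, an RNA-binding protein gene, had coding summits in 6 lists (21.52 to 195.69), and CAT3, a catalase gene, in 6 (34.07 to 88.14). The CAT3 summits lay 159 to 233 bp from an annotated transcript start, so they count by the gene TSS alone. The part of transcript abundance in these peaks was not tested.

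The 49 gene-body peaks of ARR1_m are given apart, since this list kept few peaks. They lay in the coding sequence (40) and the 3′ UTR (9). The highest was over RAP2.4, an AP2/ERF factor gene, at 67.24, followed by UBQ10 at 55.82 and MO1 at 49.07. All 49 were overlapped by a peak of another list, and 9 of them by all 9 other lists. Even so, 21 of the 49 had no summit of another list within 100 bp. At RAP2.4 the kept gene-body peaks of 4 lists had summits spread over 578 bp, and in the other 6 lists a kept peak overlapped the locus but its summit did not meet the position rule.

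Some strong gene-body peaks were shared by few lists. FBH3, a bHLH transcription factor gene, had summits 4 bp apart in the lists labelled ARR12_BA and ARR12_m, at 168.85 and 201.25, and a peak of at most 19.66 elsewhere. It was the highest kept gene-body peak of both lists, with summits 514 and 518 bp from the TSS of FBH3, just beyond the 500 bp limit. In both lists the peak reached over that TSS. HB4, a homeodomain gene, had summits within 21 bp in the third intron in 4 lists, at 19.65 in ARR1_BA, 123.73 in ARR1_BA3d, 36.09 in ARR10_BA and 268.59 in ARR14_BA3d, and AGATHY was in 4 of 4 windows. Other strong peaks recurred in 8 lists. CAT6 had summits within 101 bp in the third intron (19.45 to 263.43), and AGATHY was in 8 of 8 windows. DOG1, a seed dormancy gene, had a 3′ UTR peak (33.37 to 245.3), and so had AT3G57450, at 99.3 the third highest gene-body peak of ARR10_BA. Of the remaining peaks among the 3 highest of a list, BZIP24, a bZIP factor gene, had a 3′ UTR peak at 179.13 in ARR1_BA3d. LBD37, a LOB-domain protein gene, had one at 55.27 in the etiolated list, and AT1G32920 one at 72.35 in ARR10_m.

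Most genes held 1 gene-body locus. CA1, a carbonic anhydrase gene, held 3, and 56 genes held 2 or more. AT1G04280, TGA9, a bZIP factor gene, PIF3, a light-signalling bHLH gene, and RCD1 were the next by gene number. Of the CA1 loci, 2 lay 33 bp and 415 bp from an annotated transcript start, so they are gene-body loci by the gene TSS alone. A PIF3 locus lay 209 to 292 bp from such a start, and the nearest TGA9 summit 14 bp. Peaks near the cut-offs were numerous: 186 kept peaks inside a gene had a summit up to 50 bp short of the 500 bp limit and were left out, and 170 had one up to 50 bp beyond it and were counted. Gene-body summits with a score of 15 to 16 numbered 373, and those of 16 to 17 numbered 285. The highest score left out was 15.98, and the lowest kept was at the limit of 16.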

How the data were processed

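Members and gene lists were chosen with earlier results of these data known. The authors aligned single-end reads with Bowtie 0.12.7, keeping uniquely placed reads, called peaks with MACS2 2.0.10 against input and combined at least 2 biological replicates into 1 list by IDR. The deposited lists give each peak's position, a score that is 10 times the −log10 p-value, the fold enrichment ratio over input, the −log10 p-value itself and, as another column, the summit offset. The processing notes name TAIR10 without a role, and 1 peak outside the nuclear chromosomes was left out. Genes came from the RefSeq annotation of TAIR10. Each list gave 1 value a measure, and the 10 lists were compared by exact two-sided sign-flip permutation tests with Benjamini–Hochberg adjustment over 7 tests. Shares have Wilson intervals at the 95% level. The 5 proteins and shared input make the lists dependent, so p-values measure spread between lists. Named genes were the 3 highest gene-body peaks of each list, the 12 loci in the most lists (ties by median score percentile), the 5 genes with most loci (ties by gene number) and the members of the gene lists, of which 1 is not reported here. HB4 and FBH3 fall under the first of these. Alternatives covered the score minimum, the distance, the TSS set, the whole peak, peaks near tagged genes, the reference peaks, overlap, exon definition, window, 1 value a protein and each list left out. The code was tested on simulated data. RNA-seq records (2) and control libraries were not used here. Scripts ran under Python 3.11.15 with SciPy 1.17.1 for tests, pandas 2.3.3 and NumPy 2.4.6 for tables, and Matplotlib 3.10.9 for plots.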

Additional observations from a re-analysis of the deposited data

Results flagged for a closer look

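Of 16 measures of gene-body peaks checked over the 10 lists, 6 had one list far from the others by Dixon's criterion, which chance meets in about 1 in 20 groups, and in each of the 6 that list was ARR1_m. Its gene-body share of kept peaks was 67.1%, the score percentile of its gene-body peaks was 25.3 points above that of its other peaks, and their median width was 2204 bp. Its log2 ratio of fold enrichment between gene-body and other peaks was 0.11, its log2 intron share against the sequence was −5.00, and its AGATHY share was 11.1 points lower under gene-body summits (a difference of −11.1). The list kept 73 peaks, 49 of them in gene bodies, so the measures are not independent of each other, and its few peaks and its low scores stand beside all 6.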

How the results depend on the processing

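The 7 tests were repeated with the alternatives that apply to each, 131 outcomes in all, of which 97 kept both direction and side of the threshold, 37 of 55 for width, intron share and GC, and 60 of 76 for the 4 measures with no call. For GC the threshold could not be passed once any of the 7 lists with a difference was left out, since the others had none. No paired analysis was possible because the replicates of a condition had been merged into 1 list. With every deposited peak, the gene-body share was 14.2%, the rank difference −3.72 points and the log2 fold enrichment ratio −0.020. At a minimum of 30 the share was 12.0% and the GC difference 3.4 points. Beyond 1000 bp they were 8.36% and 0.55 points, and with every transcript start 11.4% and 2.0 points (GC adjusted p = 0.0729 by the exact permutation test). With the whole peak inside the position rule, the share was 3.49%, the rank difference −12.6 points, the log2 fold ratio −0.069, the log2 width ratio −0.087, the log2 intron ratio 0.38 and the GC difference 0.50 points. With 1 mean value a protein, the width ratio was 0.39, the intron ratio −0.65 and the GC difference 1.83 points, in a design of 5 values whose smallest p is 0.0625. Against peaks near a TSS the GC difference was 1.60 points. Summits within 100 bp gave a sharing difference of −0.84 lists, and −0.49 without ARR1_m. Exons of the longest coding transcript gave an intron ratio of −0.51. Leaving out 1 list gave rank differences of −0.75 to 2.84, width ratios of 0.37 to 0.41, fold ratios of −0.0096 to 0.0071, sharing differences of −0.17 to 0.055, intron ratios of −0.93 to −0.37, AGATHY differences of −1.61 to 0.0090 and GC differences of 1.44 to 2.22. Between intron and exon peaks, the width ratio was 0.32 at a minimum of 30 and 0.026 with the whole peak. Leaving out wide peaks is part of the whole-peak setting itself, and for the other settings the cause was not tested.

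Depth is unknown, and each list has its own lowest score, so counts between lists are bounded by list length. The lists share input and 4 of the 10 come from ARR1 lines with the same tag. Without replicates, no difference between conditions was tested. Only the summit decides membership, and 22.4% to 44.6% of gene-body peaks by list reached over a TSS.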
